A study of Caenorhabditis elegans with 4 samples.

Results

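Chromosome V held 370 of the 2705 MIX-1 peaks in the series-wide list of an embryo ChIP-seq study in Caenorhabditis elegans. They made up 13.7% of the 2695 nuclear peaks, and chromosome V made up 20.9% of the nuclear span. Membership followed the chromosome name of each peak and no measured value. The study profiled MIX-1 in wild-type N2 embryos of mixed stages, from a population of males and hermaphrodites. The samples were 2 ChIP libraries made with 1 affinity-purified rabbit polyclonal antibody, MIX-1 SDQ3892, and 2 input libraries. All samples shared strain, genotype, stage and treatment, so each comparison below is between chromosomes within a list of called regions, and whole embryos mix all cell types. The ChIP replicates are numbered, but the labels do not say that they came from separate cultures. The replicate 1 list held 325 regions on V of 2310, and the replicate 2 list held 105 of 706. Read depth is unknown, so the unequal length of the lists says nothing of the amount bound.

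MIX-1 is the SMC2-type ATPase that the condensins of this nematode share. With an SMC4-type partner and non-SMC subunits it forms the mitotic condensins, which compact all chromosomes, and another condensin that belongs to the dosage compensation machinery and acts on both hermaphrodite X chromosomes to reduce transcription. Chromosome V is the longest chromosome of C. elegans. Its arms are rich in families of chemoreceptor and nuclear hormone receptor genes, and it carries the tandem 5S ribosomal RNA genes. MIX-1 regions on autosomes are therefore set beside those on X, where the same protein also has an X-specific role. Positions are given in WS220, the build named in the file headers. No genome or annotation of that build was used here, so peaks are named by position without the genes under them.

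MIX-1 peaks were sparse on V. The series-wide list had 17.7 peaks per Mb there (exact Poisson 95% interval 15.9 to 19.6), against 20.3 on chromosomes I to IV (19.2 to 21.5) and 60.7 on X (57.2 to 64.5). V therefore stood at 0.291 times the density of X (exact interval 0.258 to 0.328, exact binomial test, p adjusted over 14 tests by Benjamini-Hochberg = 9.3e-107). In the replicate 1 list that ratio was 0.322 (0.282 to 0.366), from 15.5 regions per Mb on V and 48.3 on X. In the replicate 2 list it was 0.303 (0.240 to 0.380), from 5.02 and 16.5 regions per Mb. The density on V was thus well below that on X in each list.

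Against the other autosomes the density of V was not clearly different. The ratio was 0.871 (exact interval 0.774 to 0.979) in the series-wide list, and the adjusted p of 0.0538 from the exact binomial test missed the threshold of 0.05. Replicate 1 gave 0.849 (0.748 to 0.962, adjusted exact p = 0.0264), whereas replicate 2 gave 1.002 (0.795 to 1.25, adjusted exact p = 1). Among the single autosomes V lay between chromosome II, at 16.7 peaks per Mb, and chromosome IV, at 18.1, and its interval overlapped both. Peaks covered 155.9 kb of V, or 0.745% of its span, against 0.753% of I to IV and 2.33% of X. V also carries the most protein-coding genes, 4995 in RefSeq's table for the later assembly WBcel235, and had 74.1 peaks per 1000 of them, against 102 on I to IV together, from 73.4 on II to 136.3 on III, and 394.1 on X. Per gene, V thus stood further below I to IV together than per Mb, but close to II, a comparison without a test.

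**Figure D1:**
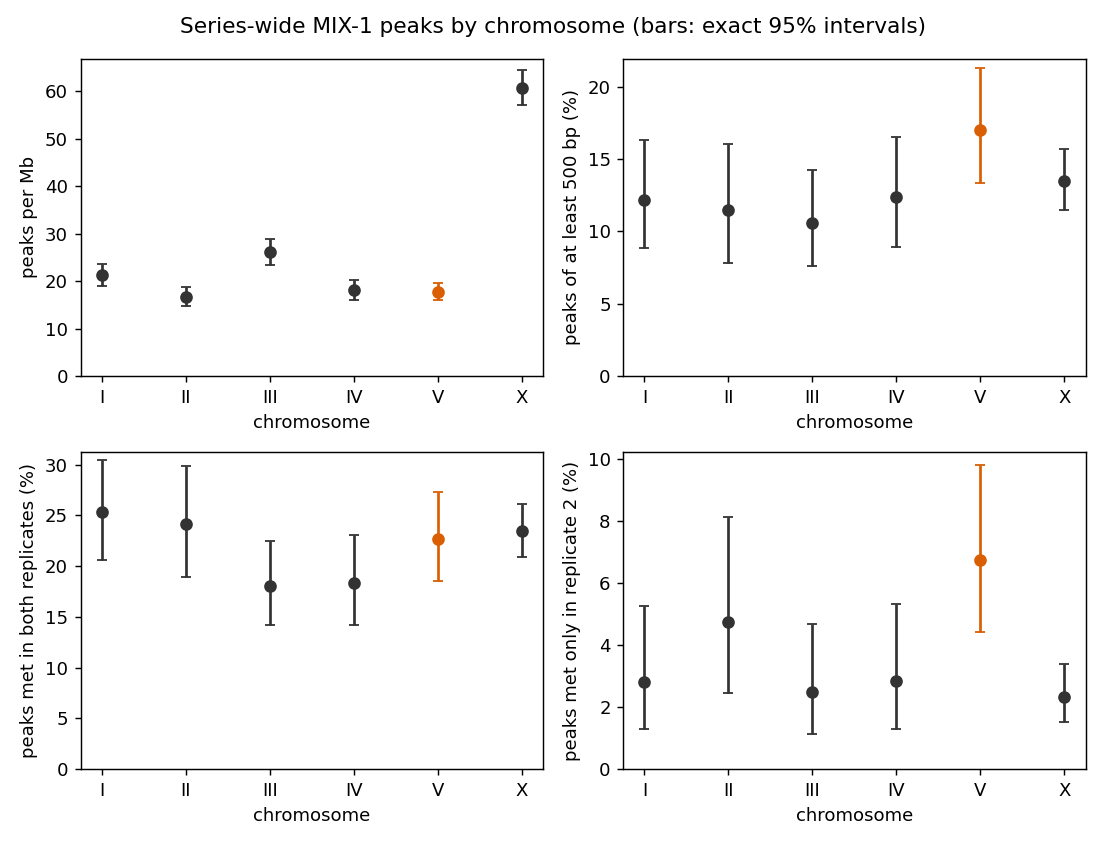
Series-wide MIX-1 peaks of each chromosome as peaks per Mb, the share of at least 500 bp, the share that met both replicate lists and the share that met replicate 2 alone, each in percent of the chromosome's peaks except the density. Points are values and bars exact 95% intervals; V, in orange, had 17.7 peaks per Mb, 17.0% wide peaks, 22.7% met in both replicates and 6.76% met in replicate 2 alone.

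Along V, peaks were spread over the whole chromosome, with the fullest part of the series-wide list left of the middle. Over 21 bins of 1 Mb, the last one shorter, the series-wide list had a median of 16 peaks per bin and a range of 7 to 37. The 3 fullest bins were the ninth, with 37 peaks, the tenth, with 28, and the fifteenth, with 25. The ninth bin, from 8000001 to 9000000, was also the fullest in replicate 1, with 29 regions, and joint second in replicate 2, with 10. The tenth bin held 26 and 9 regions in the replicate lists, and the fifteenth 21 and 4. The eighth bin held 23 series-wide peaks and 9 regions of replicate 2, but 8 of replicate 1, the joint lowest count of that list. The fullest bin of replicate 2 was the eighteenth, from 17000001 to 18000000, with 14 regions, where replicate 1 had 21 and the series-wide list 19.

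The emptiest series-wide bins were the fifth, with 7 peaks, the last, with 9, and the third, with 10. The third bin and the last bin had no region in replicate 2, but 13 and 8 regions in replicate 1. Across the 21 bins, Spearman's rho of the counts was 0.463 between the replicate lists, 0.608 between the series-wide list and replicate 1 and 0.759 between the series-wide list and replicate 2. These are descriptions over bins of 1 chromosome, and the series-wide list shares its libraries with both replicate lists.

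**Figure D2:**
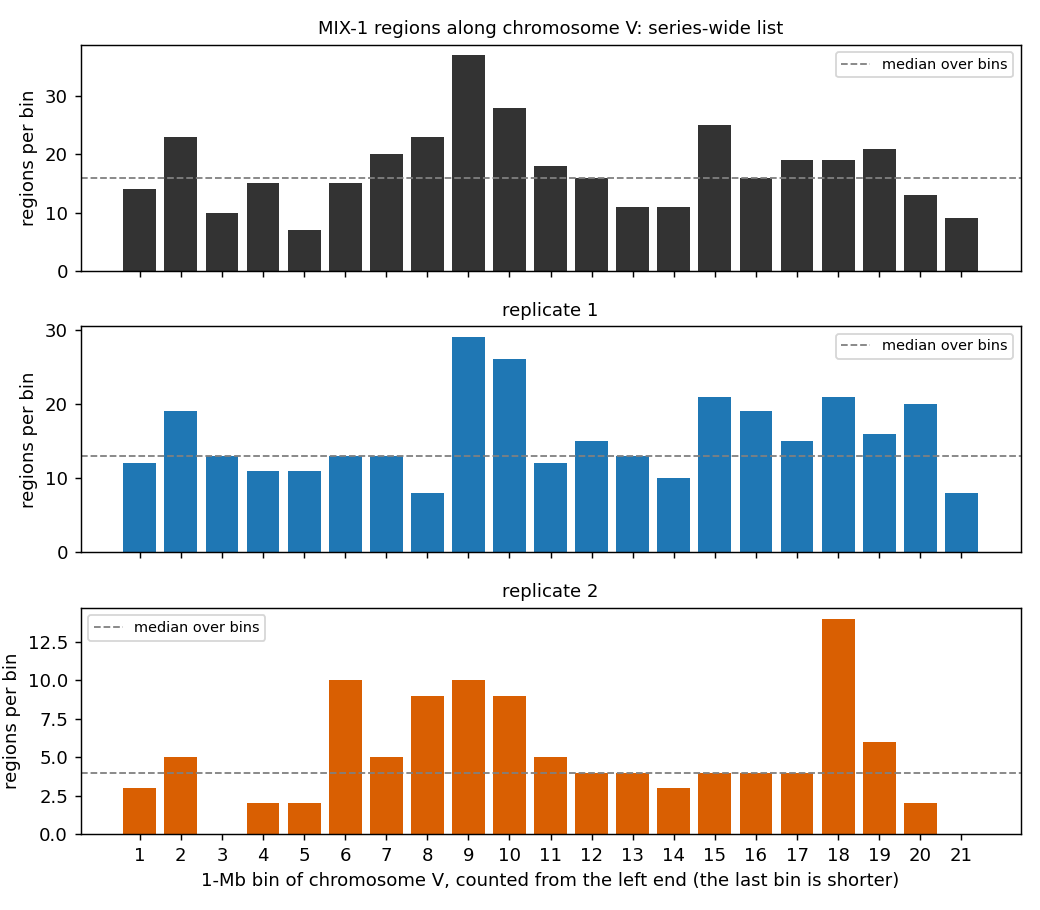
Number of MIX-1 regions in each 1-Mb bin of chromosome V, counted from its left end, in the series-wide list and in each replicate list; dashed lines mark the median over bins. The ninth bin holds 37, 29 and 10 regions in the 3 lists, and the eighteenth bin is the highest of replicate 2 with 14.

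The central 33.3% of V held 143 peaks, or 38.6% (exact 95% interval 33.7 to 43.8), the left end 104 and the right end 123. The excess over 33.3% was 5.32 points, had an adjusted p of 0.0736 in the exact binomial test and did not pass the threshold. In replicate 1 the excess was 1.13 points (adjusted exact p = 0.817) and in replicate 2 it was 7.62 points (adjusted exact p = 0.205). The share on V exceeded that on X, 29.1%, by 9.56 percentage points (95% interval 3.99 to 15.3, Fisher's exact test, adjusted p = 0.00347). The share on X (exact interval 26.4 to 31.9) was itself below 33.3%, so part of the difference lay on X. Without the ninth bin of V, which lies in the centre, the difference was 2.74 points (-2.78 to 8.56, adjusted exact p = 0.499). Taking that bin from V alone lowers the share that length gives on V from 33.3% to 29.99%, so part of this fall is arithmetic. In the replicate lists it was 5.81 points (adjusted exact p = 0.13) and 11.3 points (adjusted exact p = 0.0921), the same direction without a call. Against I to IV, at 35.9%, the difference was 2.78 points (-2.75 to 8.47, adjusted exact p = 0.499). The left and right ends did not differ detectably, with 45.8% of the 227 peaks outside the centre lying on the left (exact interval 39.2 to 52.5, adjusted exact p = 0.361).

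Median series-wide scores were 7.25 on the left, 7.76 in the centre and 6.55 on the right, and median widths were 252.5, 258 and 226 bp. Peaks met in both replicates made up 25% on the left, 23.1% in the centre and 20.3% on the right. Peaks of at least 500 bp made up 16.4% on the left, 20.3% in the centre and 13.8% on the right. In replicate 1 the right end had the most regions, 121 against 112 in the centre and 92 on the left, and its regions were the narrowest. Median widths there were 274, 435 and 405.5 bp in the same order, and 28.9%, 39.3% and 41.3% of regions reached 500 bp. In replicate 2 the centre had 43, the right end 35 and the left end 27.

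Most V peaks were narrow, and a small number of wide ones held much of the covered sequence. The median width was 245.5 bp (quartiles 178.5 and 383 bp), close to the 246 bp of I to IV and below the 283 bp of X. Peaks of at least 500 bp numbered 63 of 370, or 17.0% (exact interval 13.3 to 21.3), where 13.1% of all nuclear peaks were that wide. The share was 11.6% on I to IV, a difference of 5.42 points (1.45 to 9.90, Fisher's exact test, adjusted p = 0.0275). Pieces of the same stretch were counted as separate peaks, so they are not independent, and the p-values for wide shares do not allow for that. With peaks joined at gaps of up to 1 kb the difference was 4.56 points (-0.392 to 10.1, adjusted exact p = 0.2). The direction was the same in the replicate lists, at 36% against 29.8% in replicate 1 (adjusted exact p = 0.082) and 45.7% against 40.9% in replicate 2 (adjusted exact p = 0.593). None of the 9 alternatives run on this comparison kept the call, and at a minimum of 2000 bp, which 1.82% of all nuclear peaks reached, the shares were 8 of 370 on V and 27 of 1249 on I to IV, 2.16% each. An alternative that left out the fullest run of V, with 5 wide peaks among 12, took it from V alone. Its smaller difference was thus fixed in advance. Against X, at 13.5%, the difference was 3.55 points (-0.556 to 8.13, adjusted exact p = 0.205). The 63 peaks held 51.9% of the bases covered on V, against 40.5% for such peaks on I to IV and 38.5% on X, a description without a test.

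Regions of at least 2 kb marked 17 separate stretches of V when all 3 lists were put together and regions within 1 kb were joined. These stretches spanned 69.8 kb, or 0.334% of the chromosome. They held 34.8% of the series-wide bases called on V, 31.4% of those of replicate 1 and 49.9% of those of replicate 2. Of the 17, 4 held a single region of at least 2 kb in each of the 3 lists, 3 in exactly 2 lists and 10 in 1 list. Some region was met in every list by 11. A stretch called in pieces can thus count as wide in fewer lists. V 265006 to V 267305 had 2213, 2202 and 2300 bases called in the series-wide, replicate 1 and replicate 2 lists. Its widest regions measured 1259, 1019 and 2300 bp, so it counted in 1 list. Per 10 Mb, V had 8.12 such stretches, against 10.6 on I, 10.2 on X, 7.98 on III, 5.72 on IV and 3.95 on II.

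The longest stretch ran over 12.3 kb, from V 17119905 to V 17132157, and each list called a pair of regions in it. The series-wide peaks there were 6673 and 4021 bp wide, with scores of 34.9 and 34.1. In replicate 1 both regions stood at 3100, the value at which scores of that list piled up, and measured 6768 and 5475 bp. In replicate 2 they measured 6755 and 4512 bp with scores of 3100 and 3145, the latter being the highest score of its whole list. This stretch was therefore wide and high-scoring in both libraries.

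The widest single peak of V, 6828 bp from V 10605627 to V 10612454, lay close to the middle of the chromosome. It matched a region of 6918 bp at 3100 in replicate 1 and one of 6850 bp at 1392 in replicate 2. The peak from V 5283231 to V 5285865, of 2635 bp, matched regions of 2685 bp at 3100 and 2675 bp at 971. The peak from V 4333141 to V 4336657, of 3517 bp, met 2 regions in replicate 1, the wider of 2788 bp at 3100, and 1 region of 3535 bp at 687.8 in replicate 2. Replicate 1 split the last of these 3 stretches, and the other calls were whole in both libraries.

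Some wide stretches were called whole in the replicate lists and in pieces in the series-wide list. From V 3434573 to V 3441130, replicate 1 had 1 region of 6553 bp at 3100 and replicate 2 had 1 of 6532 bp at 189.8. The series-wide list had 5 peaks there, the widest of 1546 bp, with scores of 3.08 to 10.8, which together covered 83.2% of the stretch. Of the 10 widest regions of each replicate list on V, 4 in replicate 1 and 4 in replicate 2 met more than 1 series-wide peak. The opposite case was V 9087360 to V 9090451, a single series-wide peak of 3092 bp that met 3 regions in each replicate list, the widest of 769 and 1134 bp.

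**Figure D3:**
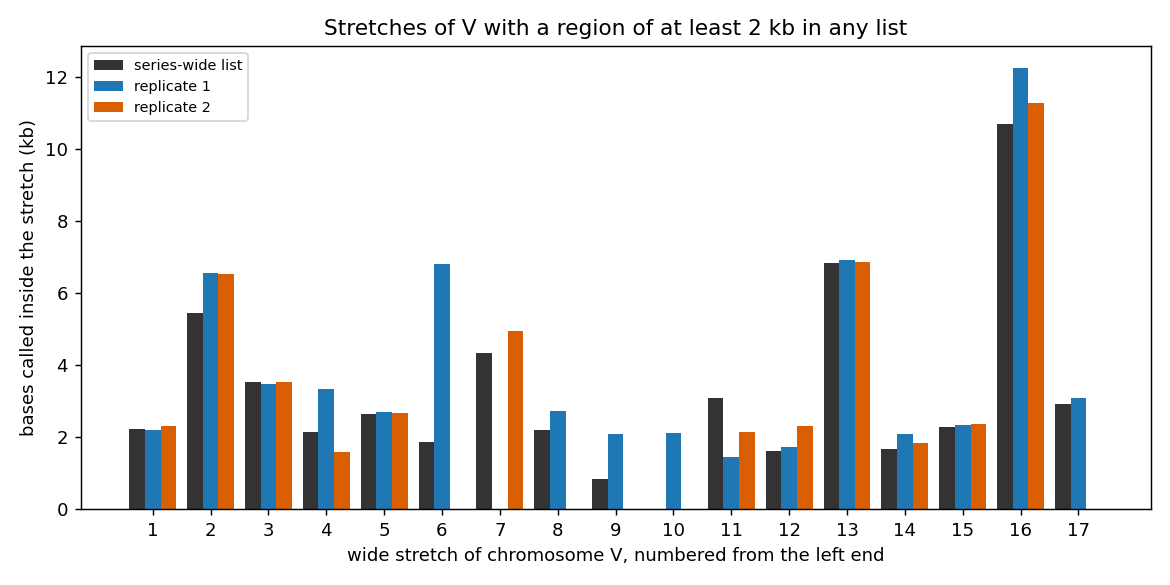
Bases called inside each of the 17 stretches of V that hold a region of at least 2 kb in any list, in kb, for the series-wide list, replicate 1 and replicate 2; stretches are numbered from the left end. Stretch 16, of 12.3 kb, is filled in all 3 lists, stretch 6 is empty in replicate 2 and stretch 7 is empty in replicate 1.

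Other wide stretches were called in 1 replicate list and were empty in the other. The run of series-wide peaks with the most members on V, 12 peaks within 11.7 kb from V 7913222 to V 7924882, met 7 regions in replicate 2 and 0 in replicate 1. Its widest replicate 2 region measured 4932 bp and scored 1565, rank 23 of 706 in that list. The nearest replicate 1 region lay 64.0 kb away. The 12 series-wide peaks had scores of 4.03 to 14.01 and widths of 168 to 1238 bp.

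The reverse was seen at V 6171602 to V 6178971, where replicate 1 had 2 regions, the wider of 4561 bp with a score of 1945, and replicate 2 had 0. The series-wide list had 6 peaks in that stretch, with scores of 4.76 to 10.9. At V 17308563 to V 17311652, replicate 1 had a region of 3090 bp at 3100 and the series-wide list a peak of 2913 bp with a score of 27.4, while replicate 2 had none. Of the 7 V regions that stood at 3100 in replicate 1, this was the only one without a counterpart in replicate 2. At V 7988840 to V 7991556, a replicate 1 region of 2717 bp scored 1390 and met no replicate 2 region. High score in 1 library was thus not always matched by a call in the other. The source of these differences was not tested.

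Support in the replicate lists otherwise resembled that of the other chromosomes. Of the 370 V peaks, 84, or 22.7% (exact interval 18.5 to 27.3), met a region of both replicates, where 22.3% of all nuclear peaks did. The difference from I to IV was 1.49 percentage points (-3.13 to 6.52, Fisher's exact test, adjusted p = 0.719), or 5.12 points (0.068 to 10.5, adjusted exact p = 0.0984) where overlap with replicate 2 was enough, and from X -0.717 points (-5.48 to 4.43, adjusted exact p = 0.831). Another 153 peaks (41.4%) met replicate 1 alone and 108 (29.2%) met neither list, against 32.5% of all nuclear peaks. The remaining 25 peaks, 6.76% (4.42 to 9.81), met replicate 2 alone, against 3.12% (2.23 to 4.24) on I to IV and 2.32% (1.51 to 3.41) on X. Single autosomes ran from 2.5% on III (1.15 to 4.69) to 4.74% on II (2.47 to 8.14), and their intervals overlapped that of V. The run from V 7913222 supplied 12 of those 25, and without it the share on V was 3.63% (1.95 to 6.13). These shares were looked at after the values were seen and carry no test.

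Seen from the replicate 2 list, 78 of its 105 V regions (74.3%, exact interval 64.8 to 82.3) met replicate 1, against 85.4% (80.9 to 89.1) on I to IV and 89.4% (85.3 to 92.7) on X. Single autosomes ran from 81.1% on IV (70.3 to 89.3) to 88% on III (78.4 to 94.4), and their intervals overlapped that of V. Without the 7 regions of the run from V 7913222, the V share was 79.6% (70.3 to 87.1). Of the 325 V regions of replicate 1, 83 (25.5%) met replicate 2, against 24.1% on I to IV and 30.5% on X. A series-wide peak was met by 97 of the 105 replicate 2 regions and by 223 of the 325 replicate 1 regions.

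Support followed score and width among the V peaks. In the 74 highest-scoring V peaks, with scores of 15.3 to 119.4, 59.5% met both replicates and 5 met neither. In the next 74, with scores of 8.72 to 15.2, 32.4% met both, and in the 3 lower groups of 74 the shares were 9.46%, 5.41% and 6.76%. By width, 4% of the 125 peaks under 200 bp met both replicates, as did 19.2% of the 182 peaks from 200 to under 500 bp. The share was 55.9% of the 34 peaks from 500 to under 1000 bp, 85.7% of the 21 peaks from 1000 to under 2000 bp and 87.5% of the 8 widest. No V peak of at least 500 bp met neither list. A wide peak offers more bases to overlap, and the series-wide list shares its libraries with the replicates, so these shares are descriptions.

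The strongest V peaks by series-wide score were a different set from the widest ones. The 12 with the highest scores among those met in both replicates measured 253 to 586 bp and scored 41.4 to 119.4. Their replicate regions scored 274.1 to 1646 in replicate 1 and 57.8 to 327.0 in replicate 2. The 8 peaks of at least 2 kb had series-wide scores of 18.4 to 34.9, all below the lowest of the 12. In replicate 1, however, 6 of these 8 stood at 3100, above each of the 12.

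The highest series-wide score of V, 119.4, belonged to a peak of 586 bp from V 14038377 to V 14038962, rank 23 of the 2695 nuclear peaks. It scored 1646 in replicate 1 and 323.8 in replicate 2, ranks 82 and 99. It was followed by a pair of neighbours within 1 kb of each other. The peak from V 5778144 to V 5778482 scored 101.2, 1073 and 248.5 in the series-wide, replicate 1 and replicate 2 lists, and that from V 5776946 to V 5777425 scored 93.9, 1036 and 265.7. These 3 peaks were also the highest of the 12 in replicate 1, and the peak from V 7060333 to V 7060834, with 327.0, was the highest of the 12 in replicate 2.

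The next peaks lay in the middle of the chromosome. The peak from V 10807875 to V 10808228 scored 84.1 series-wide, 981.8 in replicate 1 and 164.2 in replicate 2. The peak from V 11610445 to V 11610804 scored 84.0, 873.5 and 163.9 in the same order. They were 354 and 360 bp wide and ranked 51 and 52 of the 2695 series-wide peaks and 249 and 250 of the 706 regions of replicate 2. The other named peaks began at V 7230827, 7060333, 4731445, 12303402, 8631393, 19642983 and 5505050, with series-wide scores of 62.1 down to 41.4. The one nearest the right end, V 19642983 to V 19643325, lay 93.9% of the way along V and scored 43.9, 340.7 and 161.7.

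Over all V peaks the scores of the lists were only loosely related. Spearman's rho between the series-wide score and the best overlapping replicate score was 0.391 over 237 peaks in replicate 1 and 0.211 over 109 peaks in replicate 2. The same values were 0.456 and 0.402 on I to IV and 0.669 and 0.647 on X. Between the replicates rho was 0.530 over the 78 shared V regions. Score rose with width in every list on V, with rho of 0.554 for series-wide peaks, 0.802 for replicate 1 and 0.684 for replicate 2. These values are across regions, which are not independent replicates, and neighbouring peaks can meet the same replicate region.

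**Figure D4:**
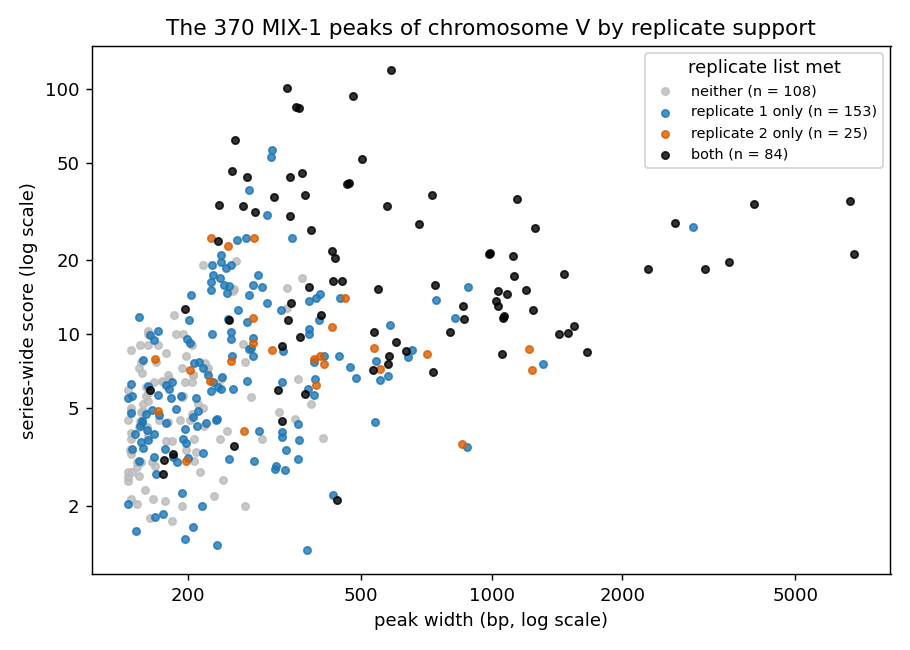
Width in bp against series-wide score for the 370 V peaks, both on log scales, coloured by the replicate lists each peak met. The highest score, 119.4, belongs to a peak of 586 bp, the 8 peaks of at least 2 kb score 18.4 to 34.9, and peaks met in neither list reach 19.8.

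High scores were about as common on V as elsewhere. The highest-scoring 10% of the nuclear list included 32 V peaks, or 8.65%, against 9.37% of I to IV peaks (difference -0.719 points, -3.73 to 2.91, Fisher's exact test, adjusted p = 0.817) and 11.2% of X peaks (-2.60 points, -5.78 to 1.14, adjusted exact p = 0.3). Of all nuclear peaks, 10% were in that class by construction. The median score was 7.25 on V, 6.85 on I to IV and 7.72 on X. The 7 V regions at 3100 in replicate 1 were all wider than 2 kb, with a median of 5475 bp, whereas 14 of the 18 I to IV regions and 8 of the 21 X regions at or above 3100 were that wide. In replicate 2 the 2 V regions at or above 3100 measured 4512 and 6755 bp, and the widths of the 3 on I to IV and the 5 on X ran from 966 to 1584 bp. These counts are small and carry no test.

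In the series-wide list, the share of V peaks with a neighbour within 10 kb did not differ detectably from that of the other autosomes. It was below that of X. A neighbour within 10 kb was found for 204 V peaks (55.1%), where 61.5% of all nuclear peaks had one. The share was 54.0% on I to IV (difference 1.17 points, -4.62 to 6.88, Fisher's exact test, adjusted p = 0.817) and 72.5% on X (-17.4 points, -23.1 to -11.7, adjusted exact p = 1e-08). The density, 60.7 peaks per Mb on X and 17.7 on V, moved with this share, and its part in it was not tested. The difference from X turned to 7.69 points in replicate 2 (adjusted exact p = 0.358) and to 14.7 points among peaks met in both replicates (adjusted exact p = 0.0562), and at a gap of 5 kb it was -6.63 points (adjusted exact p = 0.0736). In replicate 2 the V share was 47.6% against 29.2% on I to IV, a difference of 18.4 points (7.69 to 29.0, adjusted exact p = 0.0028). In replicate 1 the difference was -3.47 points (-9.62 to 2.63, adjusted exact p = 0.395). Among peaks met in both replicates it was 12.6 points (0.603 to 24.5, adjusted exact p = 0.0843). Regions of a run are flagged together, so they are not independent, and these p-values do not allow for that. The run from V 7913222 alone held 7 regions of replicate 2 and 0 of replicate 1. A neighbour within 1 kb was found for 31.4% of series-wide V peaks, against 28.4% on I to IV and 24.7% on X. In replicate 1 these shares were 26.2%, 35.7% and 30.1%, and in replicate 2 they were 31.4%, 21.4% and 17.7%, without a test. The median gap between neighbouring series-wide V peaks was 28.7 kb, against 9.94 kb on X.

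Joining V peaks at gaps of up to 10 kb gave 233 runs, of which 166 were single peaks and 25 had at least 3. Those 25 runs held 120 peaks. After the run of 12 peaks from V 7913222, the next was V 9428598 to V 9435315, with 9 peaks in 6.72 kb, 4 of them met in both replicates. The run from V 6171848 to V 6180277 had 8 peaks, none met in replicate 2. The run from V 17381487 to V 17393997 had 7 peaks in 12.5 kb and 6 and 8 regions in the replicate lists, with scores up to 448.9 and 619.8. The fifth, from V 1197191 to V 1217148, had 7 weak peaks, with scores of 3.74 to 10.0, of which 6 met neither replicate. Replicate 1 had 4 regions in that run and replicate 2 had 0.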

How the data were processed

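Regions called by the authors were read from 3 deposited lists: replicate 1, replicate 2 and series-wide. The submitters' processing notes name BWA and ce10, and the file headers give WS220 as the build. The deposited source columns name MACS for the replicates and MACS v2 for the series-wide list. The sources used here give no caller settings or controls, nor how libraries were combined. The authors' score of each region has no stated scale and was used only to rank regions within a list or to compare ranks. Region starts and ends are the authors' positions.

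Overlap required 1 bp. The span of a chromosome was its highest region end over the lists. Densities were compared by two-sided exact binomial tests, shares by Fisher's exact test with Newcombe intervals, and single shares have exact Clopper-Pearson intervals. P-values were adjusted by Benjamini-Hochberg over 14 tests, and each alternative replaced its own p in that family. The tests take regions as independent units within 1 list, so they measure no spread between libraries, and intervals cover counting error only. Peaks named were the 12 highest-scoring V peaks met in both replicates, all of at least 2 kb and the 10 widest, the 5 fullest runs, the extreme bins and gaps, the widest replicate regions, and the strongest regions missing from another list. Stretches, replicate-2-only shares, widths at 3100, correlations and the other rank comparisons were added later and carry no test. Members and lists were chosen with earlier results of these data known. Only the density and wide-share comparisons with I to IV were tested on simulated lists. Those lists placed regions independently, without the runs seen on V, so they do not show how the tests behave on clustered regions. Python 3.11.15 with scipy 1.17.1, statsmodels 0.14.6 and pandas 2.3.3 was used. The 10 mitochondrial regions were left out.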

Additional observations from a re-analysis of the deposited data

How the results depend on the processing

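Over the 14 comparisons, 97 alternatives were run, and 60 kept both the direction and the side of the threshold. The density of V below X did so in all 7 of its alternatives, though the alternative without the densest bin of V could only lower that ratio. For density against I to IV, the ratio was 0.849 to 1.002 over the replicate lists, and 0.823 (adjusted exact p = 0.005) without the densest bin of V. That bin was taken from V alone, so a lower ratio was fixed in advance and this p is no evidence of a difference. The central excess of V passed at 9.06 points among higher-scoring peaks and at 6.76 points for the central 50%, but ran from 1.13 to 7.62 points over the replicate lists and was 1.84 without the densest bin, none of these past it. The central difference from I to IV turned to -4.04 points without the densest bin, which lowers the share expected on V alone to 29.99%. That from X ran from 5.81 to 11.3 points over the replicate lists and was 10.3 in peaks met in both, 7.49 and 4.01 after joining at 1 and 10 kb, and 2.74 without the densest bin, none past the threshold. It kept the call at 12.6 points among higher-scoring peaks and 11.8 for the central 50%. The left share turned to 0.98 points above 50% in peaks met in both. Support against X turned to 3.72 points for replicate 2 and to 0.551 points with 50% overlap, while replicate 1 gave -1.93.

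The wide share against I to IV ran from 4.81 to 6.22 points over the replicate lists. It was 15.0 in peaks met in both, 8.03 in the higher-scoring part, 4.56 after joining at 1 kb and 3.27 at 1000 bp. With alternatives chosen after seeing the data it was 0.00043 at 2000 bp, 1.66 in peaks with no neighbour within 10 kb and 4.59 without the run of 12 peaks. Its adjusted p ran from 0.0538 to 1 over these. The run of 12 peaks was taken from V alone, so the fall to 4.59 was fixed in advance. Against X the wide share passed at 3.66 points at 1000 bp and was -3.92 points without neighbours. The high-score share turned to 2.23 and 1.71 points against I to IV in replicates 1 and 2, and to 0.858 against X in replicate 1, with -0.787 in replicate 2. The neighbour share against I to IV ran from -3.47 to 18.4 points over the replicate lists and was 12.6 in peaks met in both, 3.94 among higher-scoring peaks, -1.41 without the densest bin, -0.021 at 5 kb and -0.798 at 20 kb. The densest bin was again taken from V alone, so the turn to -1.41 is no evidence of a difference. Against X the neighbour share ran from -15.8 to 7.69 points over the replicate lists, with 14.7 in peaks met in both and -6.63 at 5 kb. The cause of these changes was not tested. No paired analysis was possible because only the ChIP libraries had lists here and no test compared groups of libraries. Unknown depth and the unstated combination of the libraries limit every count.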

Other observations

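Peaks lay at both limits of the span of V used here. The peak from V 1 to V 340, with a score of 11.5, met a replicate 1 region of 362 bp at 658.2 and a replicate 2 region of 382 bp at 78.4. The last peak, from V 20923842 to V 20924180, had a score of 12.8 and met neither replicate list. Its last base set the span of V, so its place at the right limit is by definition. Whether that base is the end of the chromosome in WS220 was not checked.

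The longest stretch of V without a series-wide peak measured 363.7 kb, from V 4367766 to V 4731444, and held 5 regions of replicate 1 and 1 of replicate 2. The next measured 362.4 kb, from V 19126110 to V 19488476, with 4 and 0 regions, and the others of the 5 longest measured 335.3 to 346.6 kb. V, the longest chromosome, had 17 gaps over 200 kb, against 9 on I, 11 on II, 9 on III, 13 on IV and 0 on X.

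Some replicate regions on V had no series-wide counterpart. The highest-scoring in each replicate was at the same place, V 17428777 to V 17429070 in replicate 1, with 313.4, and V 17428793 to V 17429070 in replicate 2, with 118.3. The next in replicate 1, V 18428096 to V 18428946, scored 230.4 and met no replicate 2 region. Conversely, the strongest series-wide V peak met in neither replicate was V 10578955 to V 10579212, of 258 bp, with a score of 19.8, followed by V 4194848 to V 4195064 with 19.2.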
